A study of Canis lupus familiaris with 15 samples.

Results

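The genes described here encode the proteasome, the enzymes that attach ubiquitin to proteins and the proteases that remove it. They were chosen by a rule on symbols, set with earlier results of these data known. It takes every gene on the array whose symbol starts with PSMA, PSMB, PSMC, PSMD, PSME or UBE2, or with USP followed by a digit. The rule found 68 of 5246 measured genes, on 118 probes. Of these, 14 encode the 20S core, 13 the 19S cap and its assembly, 3 an activator cap, 14 conjugating enzymes and 22 ubiquitin-specific proteases. The other 2, PSMC3IP and PSME3IP1, carry a subunit's name because their proteins were found with that subunit, and they are counted apart from the subunits.

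RNA came from 3 dog mammary tumour cell lines grown almost to confluence. The line P114 derives from an anaplastic carcinoma, the line CMT-U335 from a primary bone-forming sarcoma (osteosarcoma) of the mammary gland, and the benign mixed tumour gave CMT-U229. The labels name no treatment, and each tumour type is represented by 1 line. RNA of a pair of lines, one in Cy3 and the other in Cy5, was hybridised to each of 15 cDNA arrays, 5 for each of the 3 pairs. Replicates 1 and 4 of P114 against CMT-U335, 3, 4 and 5 of P114 against CMT-U229, and 3 and 4 of CMT-U229 against CMT-U335 had the first line in Cy3. Every value below is a log2 ratio of the first line over the second, and not a level. The numerator of the deposited ratio was read as Cy5, so every direction below is likely and not settled. A gene is called higher or lower where limma's two-sided test of the mean of 5 arrays against 0 gave a Benjamini-Hochberg adjusted p under 0.05 over all genes. Errors are standard errors from that fit, n = 5 arrays.

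The labels name the arrays biological replicates, but the series design mentions dye swaps, so some arrays may repeat the same RNA. The p-values then measure the spread between arrays only. After turning, arrays of a pair correlated over probes at 0.0 to 0.497, least in CMT-U229 against CMT-U335 and in P114 against CMT-U229 where dye orders differed. Spot intensities were not used here, so nothing is known of how far a probe stood above background. A ratio also cannot tell more RNA per cell from more cells of a kind in the culture. Of 5 measured epithelial markers, 4 were higher and 1 lower in P114 than in CMT-U335. Against CMT-U229, 2 were higher and 0 lower in P114. EPCAM was higher in P114 than in CMT-U335 (3.55 ± 0.154) and CMT-U229 (1.80 ± 0.0988). TJP1 was lower in P114 than in CMT-U335 (-0.35 ± 0.0816), and KRT8 stood at -0.31 ± 0.186 in P114 over CMT-U229, uncalled. Of 9 measured mesenchymal and bone markers, 2 were higher and 3 lower in P114 than in CMT-U335: collagen COL1A2 was lower (-1.39 ± 0.142) and the bone matrix gene SPP1 higher (4.12 ± 0.179). COL1A2 was higher in P114 than in CMT-U229 (2.06 ± 0.301). Of 5 measured myoepithelial markers, 0 were higher and 2 lower in P114 than in CMT-U335, and likewise against CMT-U229. In CMT-U229 against CMT-U335, 1 was higher and 1 lower. Of 4 measured leukocyte markers, 1 was higher and 1 lower in P114 than in CMT-U335. Against CMT-U229, 1 was higher and 0 lower in P114, and none was called in CMT-U229 against CMT-U335. None of the 3 measured endothelial markers was called in any pair (PECAM1, CDH5, VWF, KDR, TEK and ENG were sought). Ratios cannot show whether a marker is absent.

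As background, ubiquitin is passed from an activating enzyme to a conjugating enzyme and then, with a ligase, onto a target protein. Chains of ubiquitin mark many targets for the proteasome, and ubiquitin-specific proteases trim or remove them. The core of the proteasome is a barrel of alpha rings, which gate the entrance, around beta rings, which hold the cutting sites. The cap binds ubiquitin chains and unfolds the target with a ring of ATPases, and a separate activator can take its place. Cells that meet interferon exchange some beta subunits for others that favour peptides for antigen presentation.

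**Figure D1:**
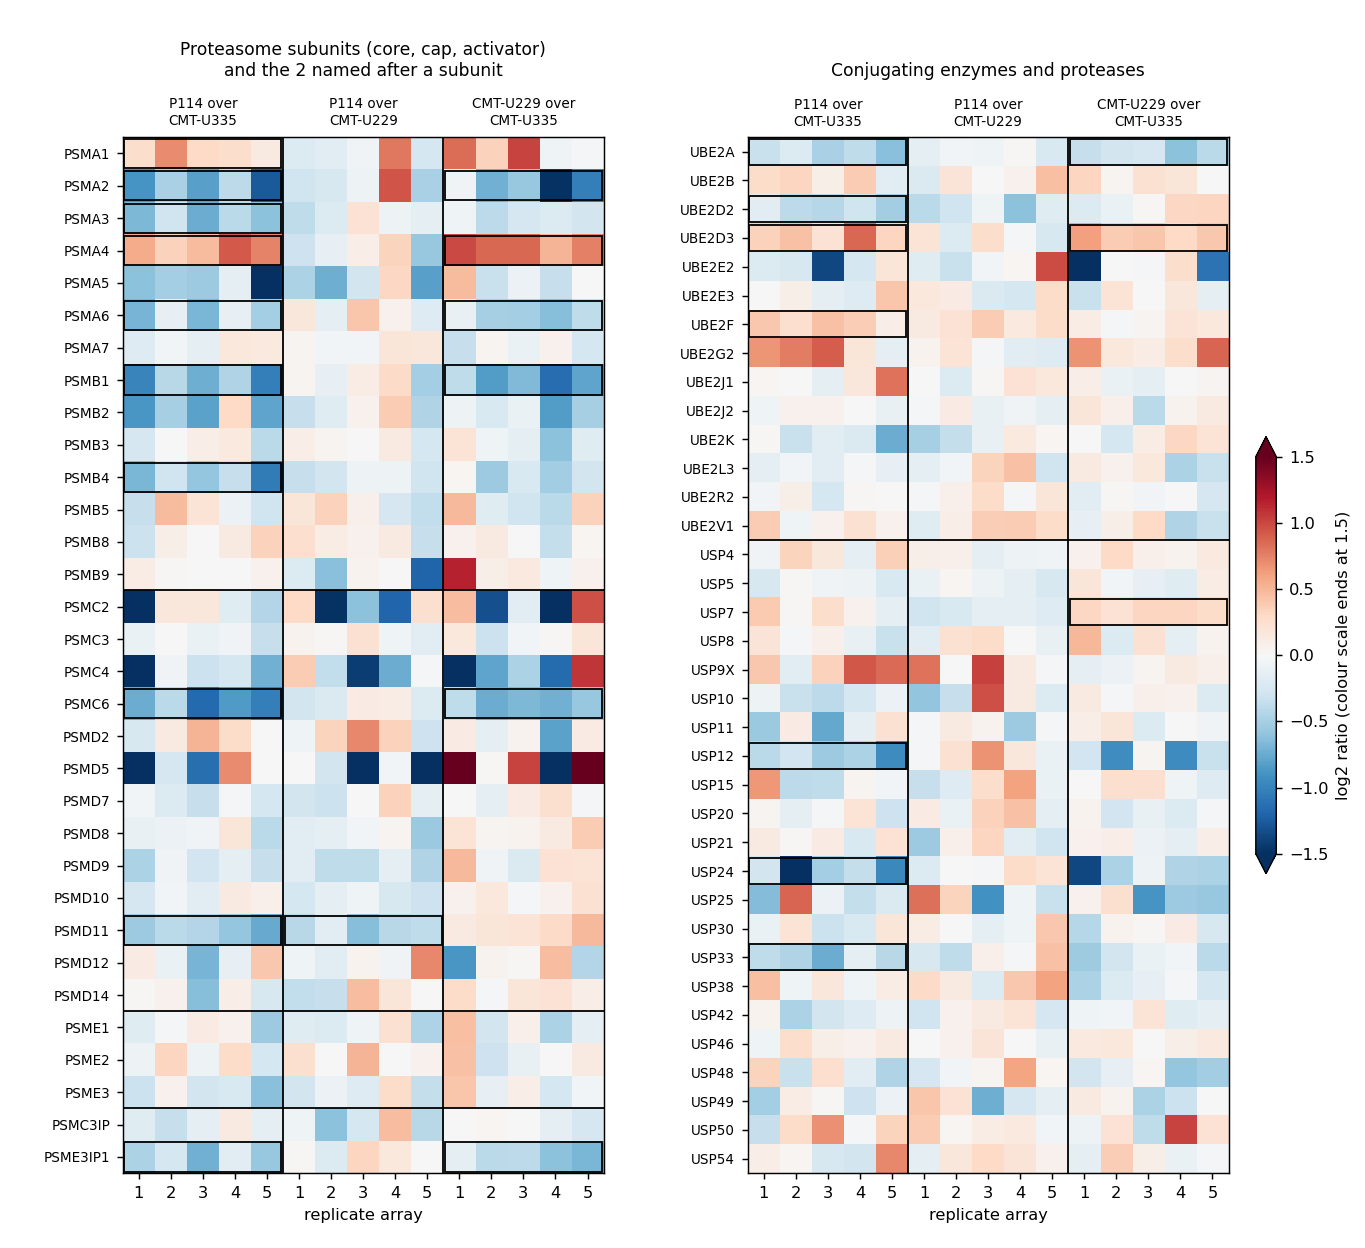
Colour map of the log2 ratio of every gene of the set on each of the 15 arrays, with genes in rows and replicate arrays 1 to 5 of each pair in columns. Red is higher and blue lower in the first line, the colour scale ends at 1.5, and a black frame marks a gene called in that pair. Framed rows lie mostly in the outer blocks, where CMT-U335 is the second line, and 1 frame, that of PSMD11, lies in the block of P114 over CMT-U229.

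In P114 against CMT-U335, 17 of the 68 genes were called, 4 higher and 13 lower in P114, which is 25% where 22.3% of all genes were called (7.89% higher and 14.4% lower). In CMT-U229 against CMT-U335, 9 were called, 3 higher and 6 lower in CMT-U229, which is 13.2% beside 17.3% of all genes (8.77% higher and 8.58% lower). In P114 against CMT-U229, 1 was called, PSMD11, lower in P114, which is 1.47% beside 7.3% of all genes (3.32% higher and 3.98% lower). As a whole the set was thus called at a share near that of all genes in both comparisons with CMT-U335. All 27 called values had the same sign on 5 of 5 arrays. Their ratios were small, from 1.22-fold to 1.79-fold, and 0 of the 68 genes was called at 2-fold or more in any pair, beside 3.72%, 1.77% and 2.94% of all genes in P114 against CMT-U335, P114 against CMT-U229 and CMT-U229 against CMT-U335. Unadjusted p-values under 0.05 numbered 26, 8 and 20 in that order of pairs.

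The counts changed when arrays were averaged or left out. Couples of arrays of opposite dye order, taken as apparent swaps of the same RNA, were averaged in an alternative fit of 3 values per pair. The count of genes higher in P114 than in CMT-U335 then went from 4 to 2 and that of lower genes from 13 to 10. Only 1 gene was higher and 2 were lower in CMT-U229 than in CMT-U335, and none was called in P114 against CMT-U229. The labels do not name the couples. Coupled replicates 4 and 5 of CMT-U229 against CMT-U335 correlated at 0.184, below uncoupled replicates 2 and 4 of opposite dye order (0.284). A fit of 3 values also has less power than one of 5, and its part in the lost calls was not tested. With a single array left out, the count of higher genes in P114 against CMT-U335 fell to 2 without replicate 1, 2, 3 or 4. The count of lower genes in CMT-U229 against CMT-U335 fell to 3 without replicate 2 or 4 and to 2 without replicate 5.

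Core subunits were called in both comparisons with CMT-U335. In P114 against CMT-U335, 7 of 14 were called (50%, beside 22.3% of all genes), 5 lower and 2 higher in P114, and the class median was -0.253 where the median of all genes was -0.0228. Of the 7 alpha subunits 5 were called, and of the 7 beta subunits 2 were. In CMT-U229 against CMT-U335, 4 of 14 core genes were called (28.6%, beside 17.3% of all genes), 3 lower and 1 higher in CMT-U229, with a class median of -0.136 beside -0.00504 for all genes. In P114 against CMT-U229 no core gene was called, with a median of -0.0364 beside -0.0113. The core was therefore not uniform: its called members pointed both ways, and 7 of its 14 genes were called in no pair.

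PSMA2, an alpha ring subunit, gave -0.88, -0.49, -0.82, -0.39 and -1.26 on replicates 1 to 5 of P114 over CMT-U335. All 5 arrays were negative, and the mean was -0.77 ± 0.131, 1.70-fold lower in P114 (adjusted p = 0.0054, limma). On the arrays of CMT-U229 over CMT-U335 it gave -0.05, -0.72, -0.57, -1.48 and -1.02. Replicate 1 lay near 0 there and replicate 4 lay lowest, around a mean of -0.77 ± 0.189 (adjusted p = 0.0323). This second call was lost without replicate 2, 3, 4 or 5 (means -0.59 to -0.82, adjusted p = 0.0596 to 0.111) and with apparent swaps averaged (adjusted p = 0.187). Between P114 and CMT-U229 the mean was -0.04 ± 0.2, and replicate 4 (0.94) stood opposite to the other arrays (-0.49 to -0.08).

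PSMA4, another alpha ring subunit, ran against PSMA2. Its ratios of P114 over CMT-U335 were 0.56, 0.35, 0.47, 0.92 and 0.74, a mean of 0.61 ± 0.0991, 1.52-fold higher in P114 (adjusted p = 0.00452, limma). Its ratios of CMT-U229 over CMT-U335 were 0.99, 0.86, 0.86, 0.51 and 0.76, a mean of 0.79 ± 0.0853, 1.73-fold higher in CMT-U229 (adjusted p = 0.00126). All 10 arrays with CMT-U335 were positive, and no array left out ended either call. The 3 PSMA4 probes did not move alike: in P114 over CMT-U335 they gave -0.05, 0.92 and 0.96, and in CMT-U229 over CMT-U335 0.31, 1.19 and 0.88, with 2 of the 3 called in each pair.

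PSMB1, a beta ring subunit without a cutting site of its own, resembled PSMA2. It gave -0.99, -0.42, -0.73, -0.45 and -1.03 in P114 over CMT-U335, with a mean of -0.72 ± 0.115 (1.65-fold lower in P114, adjusted p = 0.00411, limma). The arrays of CMT-U229 over CMT-U335 gave -0.38, -0.84, -0.66, -1.14 and -0.79, with a mean of -0.76 ± 0.11 (1.69-fold lower, adjusted p = 0.00413). Both sets of arrays lay wholly below 0 and overlapped each other.

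PSMA6, which sits in the alpha ring, was also lower in both lines than in CMT-U335, by less. The P114 arrays read -0.70, -0.12, -0.68, -0.12 and -0.51 (mean -0.43 ± 0.116, adjusted p = 0.0349, limma), with replicates 2 and 4 close to 0. The CMT-U229 arrays read -0.11, -0.50, -0.51, -0.64 and -0.38 (mean -0.43 ± 0.09, adjusted p = 0.0184). Without replicate 1, 3 or 5 the P114 call was lost (adjusted p = 0.0965 to 0.114), as it was with a dye term (0.0656) or the median of its 4 probes (0.0515). The CMT-U229 call was lost without replicate 2, 3, 4 or 5 (adjusted p = 0.05 to 0.0739). Averaging apparent swaps ended both calls.

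PSMB4 and PSMA3 were called in P114 against CMT-U335 only among the pairs tested. PSMB4, a beta ring subunit, read -0.69, -0.30, -0.58, -0.34 and -1.05 (mean -0.59 ± 0.12, adjusted p = 0.0109, limma). PSMA3, an alpha ring subunit, read -0.67, -0.30, -0.74, -0.40 and -0.61 (mean -0.54 ± 0.09, adjusted p = 0.00484). Against CMT-U335, CMT-U229 had means of -0.31 ± 0.0995 and -0.24 ± 0.0726 in the same order, and neither passed the test (adjusted p = 0.0817 and 0.0699). The difference between the P114 and CMT-U229 effects was itself not called for PSMB4 (-0.29 ± 0.146, adjusted p = 0.338) or PSMA3 (-0.31 ± 0.12, adjusted p = 0.173). PSMA3 again had a probe apart, at 0.05 in P114 over CMT-U335 beside -0.92 and -0.76 for the others. In CMT-U229 over CMT-U335 the same probes gave -0.06, -0.46 and -0.19. The one at -0.46 was called lower by itself (adjusted p = 0.006, limma over named probes).

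PSMA1 was higher in P114 than in CMT-U335 by 0.33 ± 0.0971 (adjusted p = 0.0453, limma), the smallest margin to the threshold of any core gene. The call was lost without any one of the 5 arrays (means 0.24 to 0.38, adjusted p = 0.0544 to 0.105). It was also lost in 5 other alternative fits besides the stricter thresholds. PSMA1 read 0.84, 0.34, 1.01, -0.06 and -0.03 in CMT-U229 over CMT-U335, and its mean of 0.42 ± 0.176 did not pass the test (adjusted p = 0.168).

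Core genes short of the threshold with large means were PSMA5 and PSMB2. PSMA5, an alpha subunit, had the lowest core mean in P114 over CMT-U335, -0.85 ± 0.303 (adjusted p = 0.0884, limma), set by -2.43 on replicate 5 beside -0.62 to -0.15 on the others. Without that array its mean was -0.46 and it was called (adjusted p = 0.0297). Of its 2 probes, 1 was called lower by itself (-0.57 ± 0.103, adjusted p = 0.00673, limma over named probes). The other was not (-1.13 ± 0.52). PSMB2, a beta subunit, was at -0.53 ± 0.173 (adjusted p = 0.068), with 0.30 on replicate 4 against -0.87 to -0.50 elsewhere, and without that array it was called at -0.74 (adjusted p = 0.0046). In P114 over CMT-U229, PSMA5 (-0.40 ± 0.164) and PSMB9 (-0.40 ± 0.187) had the largest core means and were not called. Without replicate 4 of that pair PSMA5 was called at -0.57 (adjusted p = 0.0322). PSMB4 was likewise called in CMT-U229 over CMT-U335 without replicate 1, at -0.39 (adjusted p = 0.0342). PSMB5, which carries the chymotrypsin-like cutting site, had means of -0.01, 0.00 and -0.01 in the 3 pairs.

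The interferon-induced beta subunits PSMB8 and PSMB9 were called in no pair, with means from -0.03 to 0.05 and from -0.40 to 0.28. The 3 subunits of the activators, PSME1 and PSME2 of the interferon-induced one and PSME3 of the nuclear one, were called in no pair either. Their largest means were -0.28 ± 0.105 for PSME3 and -0.11 ± 0.11 for PSME1 in P114 over CMT-U335. PSME2 was at 0.16 ± 0.0978 and PSME1 at -0.13 ± 0.106 in P114 over CMT-U229. PSME1 was at -0.08 ± 0.135 and PSME2 at 0.03 ± 0.112 in CMT-U229 over CMT-U335.

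Other genes of interferon-induced antigen presentation did differ. B2M, the light chain of class I molecules, was higher in P114 than in CMT-U335 (0.62 ± 0.179), lower in P114 than in CMT-U229 (-1.96 ± 0.0754) and higher in CMT-U229 than in CMT-U335 (2.32 ± 0.306), each called by limma. OAS2, an interferon-induced antiviral enzyme, was higher than in CMT-U335 in both P114 (2.14 ± 0.202) and CMT-U229 (1.47 ± 0.327). DLA88, of the same list, was lower in P114 than in CMT-U229 (-1.05 ± 0.24). TAP1, a peptide transporter whose gene lies between PSMB8 and PSMB9 in the RefSeq gene order, was lower in P114 than in CMT-U335 (-0.41 ± 0.075). Of the 6 measured genes of this list, 3, 2 and 2 were called in P114 against CMT-U335, P114 against CMT-U229 and CMT-U229 against CMT-U335. These are 50%, 33.3% and 33.3% of the list, beside 22.3%, 7.3% and 17.3% of all genes. PSMB9 reached 1.15 on replicate 1 of CMT-U229 over CMT-U335 and lay between -0.07 and 0.15 on the other 4 arrays. The list's median on that array was 1.58, and between -0.27 and 0.15 on the others. In P114 over CMT-U229 PSMB9 read -0.63 and -1.20 on replicates 2 and 5, and lay between -0.21 and 0.05 on the others. The list's median was -0.683 and -1.077 on those replicates, and between -0.375 and 0.01 on the others. The list's part in the PSMB9 values was not tested.

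In the 19S cap 2 of 13 genes were called in P114 against CMT-U335, both lower in P114, with a class median of -0.178. In P114 against CMT-U229 1 was called (class median -0.171), and in CMT-U229 against CMT-U335 1 (class median 0.0347). These are 15.4%, 7.69% and 7.69% of the cap, beside 22.3%, 7.3% and 17.3% of all genes. The medians of all genes were -0.0228, -0.0113 and -0.00504.

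PSMC6, an ATPase of the unfolding ring, had the largest called ratio of the whole set. It gave -0.75, -0.41, -1.17, -0.85 and -1.02 in P114 over CMT-U335, a mean of -0.84 ± 0.116, 1.79-fold lower in P114 (adjusted p = 0.00227, limma). By size of the mean it ranked 310 among the 5246 genes of that pair. It gave -0.38, -0.75, -0.67, -0.72 and -0.57 in CMT-U229 over CMT-U335, a mean of -0.62 ± 0.0783, 1.53-fold lower in CMT-U229 (adjusted p = 0.00233). All 10 arrays lay below 0, both of its probes were called in both pairs, and no array left out ended either call.

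PSMD11, a lid subunit that helps hold the cap on the core, followed another order. It gave -0.55, -0.41, -0.44, -0.58 and -0.76 in P114 over CMT-U335 (mean -0.55 ± 0.0796, adjusted p = 0.00285, limma). It gave -0.42, -0.16, -0.64, -0.42 and -0.38 in P114 over CMT-U229 (mean -0.40 ± 0.0869, adjusted p = 0.0367). In CMT-U229 over CMT-U335 every array was positive, from 0.14 to 0.49, with a mean of 0.26 ± 0.0763 that did not pass the test (adjusted p = 0.0585). It was thus lower in P114 than in either other line. The effect against CMT-U335 differed between P114 and CMT-U229 by -0.81 ± 0.104 (adjusted p = 0.000159, limma over all 15 arrays). This was the 1 gene of the 68 for which that difference was called, beside 6.23% of all genes, and the count was 2 without replicate 1 or 3 of CMT-U229 against CMT-U335. The difference is an indirect ratio of P114 over CMT-U229. It thus estimates the same quantity as the direct mean of -0.40, and is not a separate effect. The call in P114 against CMT-U229 was lost without replicate 1, 3, 4 or 5 (means -0.41 to -0.35, adjusted p = 0.074 to 0.131), with a dye term (0.0574) and with apparent swaps averaged (0.131).

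Of the other cap genes, the scaffold subunit PSMD2 and the lid subunits PSMD7, PSMD8 and PSMD12 were called in no pair, as was PSMD14, the deubiquitinase of the lid. Their means ranged from -0.18 to 0.20. The assembly chaperones PSMD9 and PSMD10 were not called either, with PSMD9 closest in P114 over CMT-U335 (-0.26 ± 0.0845, adjusted p = 0.0676, limma) and P114 over CMT-U229 (-0.30 ± 0.0811, adjusted p = 0.0745).

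In 3 cap genes the arrays disagreed widely. These were chosen for description after their values had been seen. PSMC2, an ATPase, read -3.99, 0.17, 0.17, -0.18 and -0.44 in P114 over CMT-U335. PSMC4, another ATPase, read -2.77, -0.79, -0.47, -1.15 and 1.07 in CMT-U229 over CMT-U335. PSMD5, a chaperone of the base, ranged from -2.11 to 2.48 in that pair. Each of the ATPases has 2 probes, and the spread lay in 1 of them. The quieter PSMC4 probe was lower in P114 than in CMT-U335 (-0.80 ± 0.104, adjusted p = 0.00162, limma over named probes) and in CMT-U229 than in CMT-U335 (-0.68 ± 0.0786, adjusted p = 0.00151). Its partner had standard errors of 0.486 and 0.949. The quieter PSMC2 probe was lower in P114 than in CMT-U335 (-0.90 ± 0.139, adjusted p = 0.00345), where its partner had a standard error of 1.12. In the average over probes neither gene was called. PSMC3, an ATPase with 3 probes, was the 1 gene of the set with probes called in opposite directions, 0.39 and -0.43 in P114 over CMT-U335, and the third stood at -0.31.

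**Figure D2:**
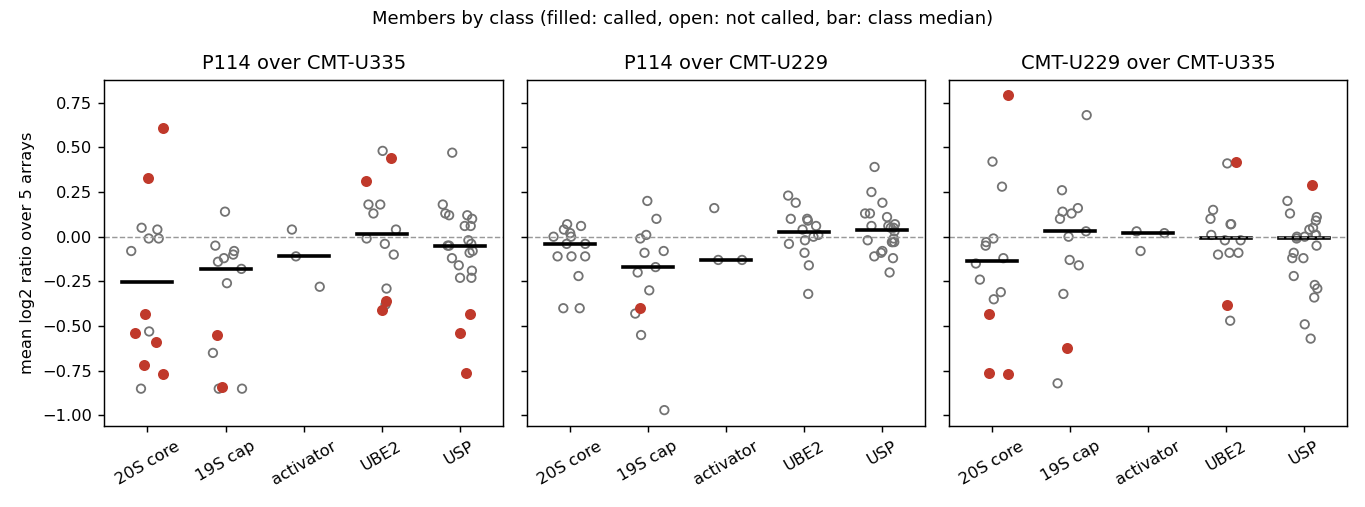
Mean log2 ratio over 5 arrays of each gene (points) by class and pair of lines. Filled points were called, open points were not, and the bar is the class median. In P114 over CMT-U335 the core spans -0.85 (PSMA5, not called) to 0.61, its called genes lie from -0.77 to 0.61, and most conjugating enzymes and proteases lie near 0.

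Among the 14 conjugating enzymes, 4 were called in P114 against CMT-U335, 2 in each direction, none in P114 against CMT-U229, and 1 in each direction in CMT-U229 against CMT-U335. These are 28.6%, 0% and 14.3% of the class, beside 22.3%, 7.3% and 17.3% of all genes. The class medians were 0.0126, 0.0259 and -0.00373.

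UBE2D3 belongs to a small family of conjugating enzymes that serve many ligases. It gave 0.35, 0.44, 0.22, 0.86 and 0.32 in P114 over CMT-U335 (mean 0.44 ± 0.104, 1.36-fold higher, adjusted p = 0.0205, limma). It gave 0.61, 0.38, 0.42, 0.30 and 0.40 in CMT-U229 over CMT-U335 (mean 0.42 ± 0.0715, adjusted p = 0.00755). All 10 arrays were positive. The P114 call was lost without replicate 2 (0.44, adjusted p = 0.0541), and the CMT-U229 call with apparent swaps averaged (adjusted p = 0.0618).

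UBE2D2, its close relative, ran the other way. Its ratios of P114 over CMT-U335 were -0.17, -0.39, -0.43, -0.30 and -0.52, 1.29-fold lower in P114 (mean -0.36 ± 0.0791, adjusted p = 0.0151, limma). The arrays of the relatives did not overlap in that pair. UBE2D2 also had the largest mean of the class in P114 over CMT-U229, -0.32 ± 0.0972, which did not pass the test (adjusted p = 0.115). It was at 0.07 ± 0.101 in CMT-U229 over CMT-U335. The call in P114 against CMT-U335 was lost without replicate 3 (-0.34, adjusted p = 0.055), and it came from 1 of 2 probes (-0.57 and -0.15). Close relatives can bind each other's cDNA probes, and how far they did so cannot be told apart here.

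UBE2A, a conjugating enzyme of the DNA damage response, was lower than in CMT-U335 in both other lines. It gave -0.33, -0.21, -0.49, -0.38 and -0.63 in P114 (mean -0.41 ± 0.0845, adjusted p = 0.0121, limma) and -0.34, -0.27, -0.25, -0.62 and -0.41 in CMT-U229 (mean -0.38 ± 0.0782, adjusted p = 0.0172). The CMT-U229 call was lost without replicate 5 (-0.37, adjusted p = 0.0647), and both were lost with apparent swaps averaged (0.0568 and 0.0946). Its near copy UBE2B had means of 0.18, 0.10 and 0.15 in P114 over CMT-U335, P114 over CMT-U229 and CMT-U229 over CMT-U335 and was not called.

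UBE2F, which conjugates the ubiquitin-like NEDD8 to cullins, read 0.40, 0.25, 0.44, 0.37 and 0.10 in P114 over CMT-U335 (mean 0.31 ± 0.0799, adjusted p = 0.0279, limma). The call was lost without replicate 1, 2, 3 or 4 (0.28 to 0.33, adjusted p = 0.0578 to 0.094). In P114 over CMT-U229 its 5 arrays were positive, with a mean of 0.23 ± 0.0742 that did not pass the test (adjusted p = 0.131). UBE2G2, which works in the disposal of proteins from the endoplasmic reticulum, had the largest mean of the class in P114 over CMT-U335, 0.48 ± 0.159, and was not called (adjusted p = 0.0727). Without replicate 5 it was, at 0.63 (adjusted p = 0.0226). The other 9 conjugating enzymes were not called in any pair, UBE2J1 and UBE2J2 of the endoplasmic reticulum and UBE2L3 among them.

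Among the 22 ubiquitin-specific proteases, 3 were called in P114 against CMT-U335, all lower in P114, none in P114 against CMT-U229, and 1 in CMT-U229 against CMT-U335. These are 13.6%, 0% and 4.55% of the class, beside 22.3%, 7.3% and 17.3% of all genes. The class medians were -0.0523, 0.0383 and -0.00318. USP24, a large protease, read -0.27, -1.71, -0.51, -0.36 and -0.97 in P114 over CMT-U335 (mean -0.76 ± 0.205, 1.70-fold lower, adjusted p = 0.0342, limma). Replicate 2 lay far below the rest. The call was lost without replicate 3 (-0.83, adjusted p = 0.0665) or 5 (-0.71, adjusted p = 0.0989), with scaling between arrays (0.0531) and with apparent swaps averaged (0.0761).

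USP12, which works in complex with WD-repeat partners, read -0.41, -0.29, -0.55, -0.48 and -0.94 in P114 over CMT-U335 (mean -0.54 ± 0.105, adjusted p = 0.00965, limma). USP33, a protease that acts on receptors at the cell surface, read -0.38, -0.45, -0.75, -0.15 and -0.42 (mean -0.43 ± 0.0959, adjusted p = 0.0162). Both kept their calls without any one array. In CMT-U229 over CMT-U335 the means were -0.57 ± 0.173 for USP24, -0.49 ± 0.158 for USP12 and -0.27 ± 0.0916 for USP33, and none was called (adjusted p = 0.0667 to 0.0934).

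USP7, which deubiquitinates the p53 ligase MDM2, was higher in CMT-U229 than in CMT-U335. Its arrays read 0.31, 0.22, 0.32, 0.32 and 0.28, with the smallest standard error of any called gene of the set (mean 0.29 ± 0.0614, 1.22-fold, adjusted p = 0.0184, limma). Its 6 probes gave 0.15 to 0.52, of which 2 were called by themselves. The call was lost without replicate 2, 3 or 5 (0.28 to 0.31, adjusted p = 0.0597 to 0.0689) and with apparent swaps averaged (0.12).

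USP9X, an X-linked protease, had the largest uncalled means of its class in 2 pairs. It read 0.40, -0.17, 0.34, 0.93 and 0.85 in P114 over CMT-U335 (0.47 ± 0.16, adjusted p = 0.0779, limma), and was called without replicate 2 (0.63, adjusted p = 0.0186). Its 7 probes gave 0.29 to 0.70 there, all positive and none called. In P114 over CMT-U229 USP9X was at 0.39 ± 0.177 and USP38 at 0.25 ± 0.121, the largest of the class, both uncalled (adjusted p = 0.292 and 0.353). USP9X stood at 0.00 ± 0.0706 in CMT-U229 over CMT-U335. The other 17 proteases, such as USP5, which takes apart free ubiquitin chains, and the endosomal USP8, were called in no pair.

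PSME3IP1, whose protein binds the activator PSME3, read -0.48, -0.26, -0.72, -0.16 and -0.57 in P114 over CMT-U335 (mean -0.44 ± 0.0995, adjusted p = 0.0171, limma). It read -0.14, -0.41, -0.39, -0.61 and -0.68 in CMT-U229 over CMT-U335 (mean -0.45 ± 0.0927, adjusted p = 0.0176). The P114 call was lost without replicate 1, 3 or 5 (adjusted p = 0.0504 to 0.0565) and the CMT-U229 call without 2, 3, 4 or 5 (0.0508 to 0.0645), and both were lost with apparent swaps averaged. PSMC3IP, a recombination factor of meiosis, was not called.

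**Figure D3:**
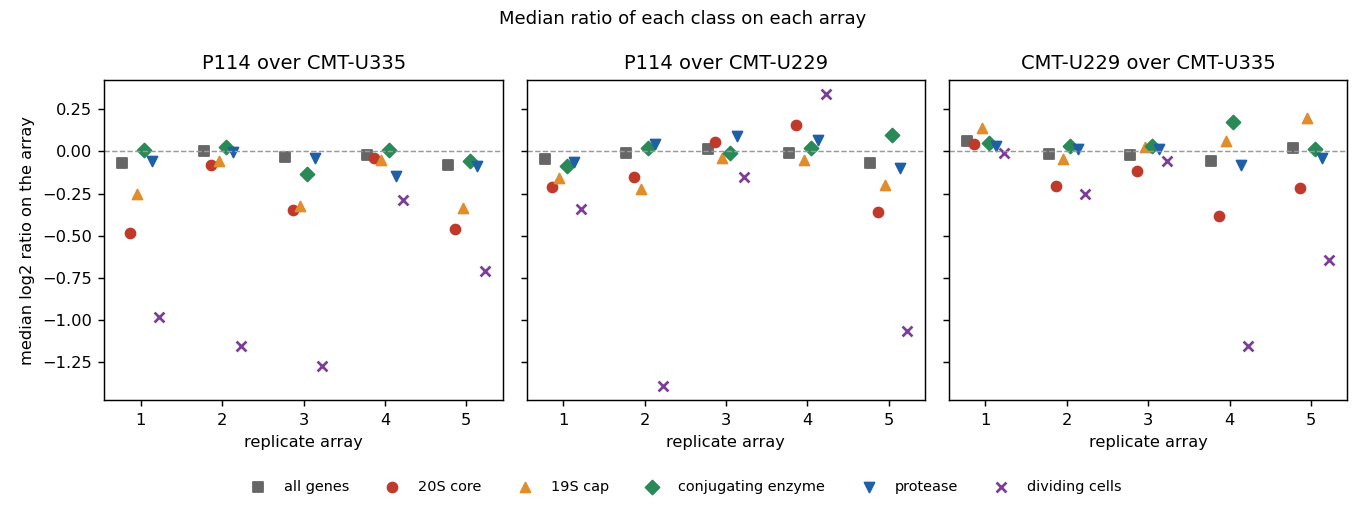
Median log2 ratio of each class on each replicate array, by pair of lines, with all genes and the dividing-cell markers for reference. In P114 over CMT-U335 the core median is -0.485 to -0.042 and lies below that of all genes on each of the 5 arrays. It lies on both sides of 0 in P114 over CMT-U229.

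Set side by side, with no test between classes, the shares called ranged from none to 50%. In at least 1 pair, 7 of 14 core genes (50%), 2 of 13 cap genes (15.4%), 0 of 3 activator genes, 4 of 14 conjugating enzymes (28.6%) and 4 of 22 proteases (18.2%) were called. The share was 26.5% for the 68 genes and 29.9% for all genes. The core median in P114 over CMT-U335 was -0.485, -0.081, -0.345, -0.042 and -0.458 on replicates 1 to 5, where all genes had -0.07, 0.00, -0.032, -0.019 and -0.081. Replicates 2 and 4 thus stood close to all genes, and the other 3 arrays well below. In CMT-U229 over CMT-U335 it was 0.043, -0.207, -0.119, -0.382 and -0.219, and in P114 over CMT-U229 -0.209, -0.154, 0.054, 0.159 and -0.357. The cap median in P114 over CMT-U335 was -0.253, -0.055, -0.321, -0.049 and -0.335. The medians of conjugating enzymes and proteases stayed within -0.148 and 0.173 on all 15 arrays.

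Markers of dividing cells are given beside the core. In P114 against CMT-U335 all 5 measured ones were lower in P114: BIRC5 (-0.76), BUB3 (-0.99), CCNB2 (-0.85), FOXM1 (-1.68) and PCNA (-0.62), each called by limma. Their median was -0.98, -1.153, -1.27, -0.289 and -0.708 on replicates 1 to 5. Replicate 4 was nearest 0 in both medians, whereas on replicate 2 the core median was near 0 and the markers' median was not. In CMT-U229 against CMT-U335 BUB3 (-0.61) and FOXM1 (-1.30) were lower, 2 of 5, with PCNA uncalled at 0.27, and in P114 against CMT-U229 0 of 5 was called. The list's median ranged from -1.16 to -0.01 and from -1.39 to 0.338 on the arrays of those pairs. Its part in the core ratios was not tested.

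Each line enters 2 pairs, so a gene can be called for 1 line against both others. CMT-U335 stood apart in 8 of the 68 genes, beside 10.2% of all genes (6.2% higher and 4% lower). PSMA2, PSMA6, PSMB1, PSMC6, UBE2A and PSME3IP1 were higher there, and PSMA4 and UBE2D3 lower. P114 stood apart in PSMD11 alone, beside 3.98% of all genes (2.06% higher and 1.93% lower), and CMT-U229 in none, beside 2.78% (1.73% higher and 1.05% lower). Both comparisons of a line share that line, so they are not independent. Averaging apparent swaps left 3 genes for CMT-U335 and none for P114. The count for CMT-U335 was 5 without replicate 2 or 4 of CMT-U229 against CMT-U335 and 4 without replicate 5, and PSMD11 was lost for P114 without replicate 1, 3, 4 or 5 of P114 against CMT-U229.

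**Figure D4:**
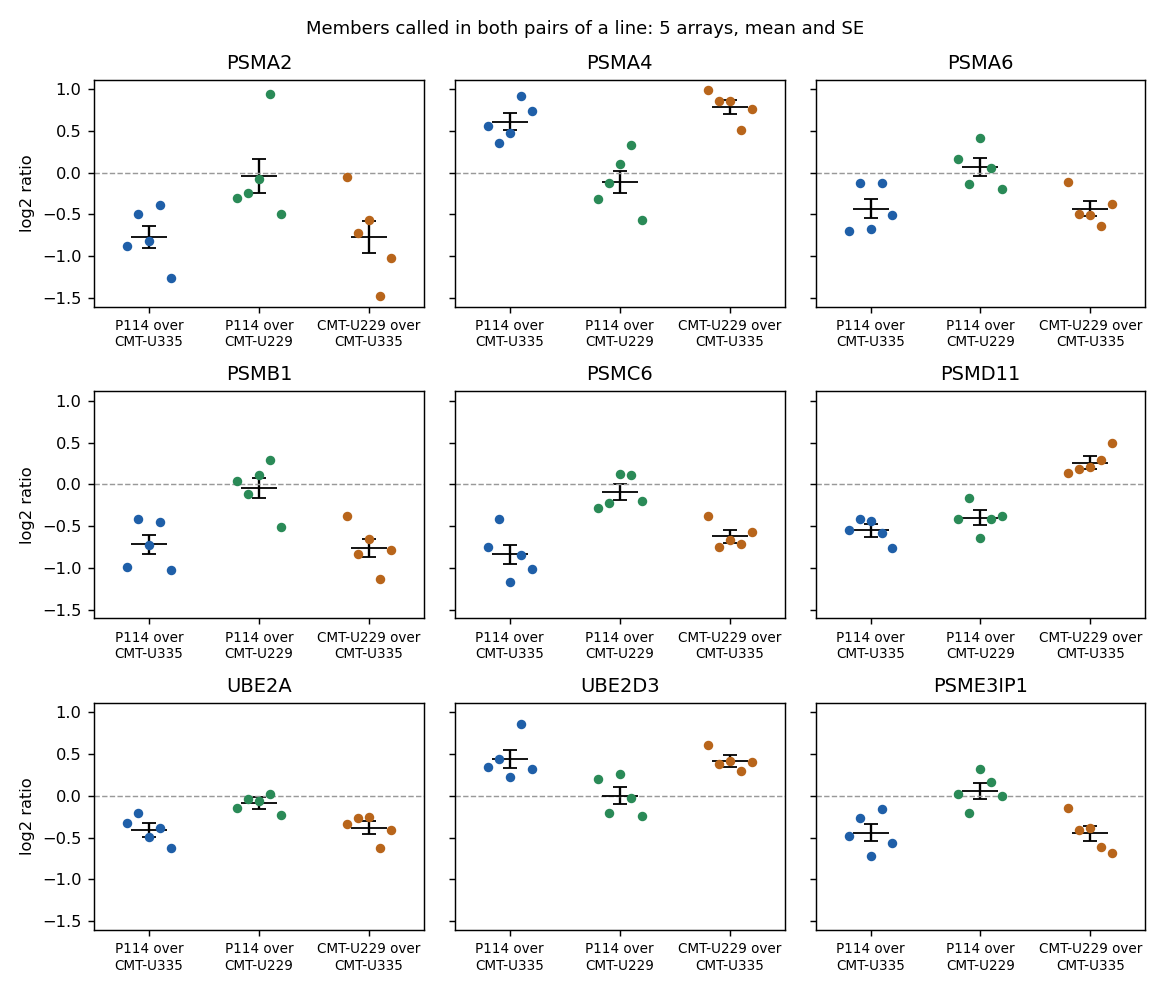
Log2 ratios of the 9 genes called in both pairs of a line, by pair of lines, with 5 arrays as points and the mean with its standard error as bars. In 8 of the panels the points of both comparisons with CMT-U335 lie on the same side of 0. In PSMD11 both comparisons of P114 lie below 0 and that of CMT-U229 over CMT-U335 above.

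The closed loop allows the direct ratio of P114 over CMT-U335 to be set against the sum of the other pairs. For the 68 genes the median absolute difference was 0.0842, beside 0.0844 for all genes, and the largest was 0.61. limma called 0 of the 68 and 0 of all 5246 genes. PSMD11 was -0.406 ± 0.128 from closure (unadjusted p = 0.00633, adjusted p = 1): its direct ratio was -0.55, and the other pairs gave -0.40 and 0.26.

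Other genes of the pathway were described from lists. Over all genes, 22.3%, 7.3% and 17.3% were called in P114 against CMT-U335, P114 against CMT-U229 and CMT-U229 against CMT-U335. Among 6 measured assembly factors and regulators of the proteasome, SEM1, a small cap subunit, was higher in P114 than in CMT-U335 (0.42 ± 0.0951). AKIRIN2, which brings proteasomes into the nucleus, was higher in CMT-U229 than in CMT-U335 (0.53 ± 0.078). The other 4 were called in no pair. In that order of pairs, 16.7%, 0% and 16.7% of this list were called.

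Of 7 measured precursors of ubiquitin and ubiquitin-like proteins, RPS27A and ATG12 were called. In the same order of pairs, 28.6%, 14.3% and 28.6% of the list were called. RPS27A, which encodes ubiquitin fused to a ribosomal protein, was higher than in CMT-U335 in P114 (0.93 ± 0.198) and CMT-U229 (1.36 ± 0.143) and lower in P114 than in CMT-U229 (-0.47 ± 0.0891). ATG12, the ubiquitin-like modifier of autophagy, was higher than in CMT-U335 in P114 (0.50 ± 0.104) and in CMT-U229 (1.00 ± 0.0762). Of 5 activating enzymes, NAE1, a subunit of the NEDD8 activating enzyme, was lower than in CMT-U335 in P114 (-0.76 ± 0.132) and CMT-U229 (-0.54 ± 0.121). ATG7, which activates ATG12, was higher in P114 than in CMT-U335 (0.36 ± 0.104). The shares of activating enzymes called were 40%, 0% and 20% in that order of pairs.

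Of 29 ubiquitin ligases and cullins, 3 were higher and 5 lower in P114 than in CMT-U335, 5 higher and 4 lower in CMT-U229 than in CMT-U335, and 0 called in P114 against CMT-U229. These are 27.6%, 31% and 0% of the list, beside 22.3%, 17.3% and 7.3% of all genes. BIRC2, a ligase that restrains cell death, was lower than in CMT-U335 in P114 (-0.91 ± 0.0947) and CMT-U229 (-0.83 ± 0.0698). SMURF2, a ligase of TGF-beta signalling, and CUL4A, a cullin scaffold, were higher in P114 than in CMT-U335 (0.67 ± 0.109 and 0.60 ± 0.0866). CDC26, of the anaphase-promoting complex, was lower in CMT-U229 than in CMT-U335 (-0.66 ± 0.111), and CDC16 of the same complex higher (0.57 ± 0.121).

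In a list of deubiquitinases outside the USP family and related proteins, UCHL1, COPS5 and STAMBPL1 each had a called ratio larger than that of any USP gene. UCHL1, abundant in neurons, was higher in P114 than in CMT-U335 (1.89 ± 0.186) and CMT-U229 (1.25 ± 0.103), and higher in CMT-U229 than in CMT-U335 (0.61 ± 0.065). COPS5, the NEDD8-removing subunit of the signalosome, was lower in P114 than in CMT-U229 (-0.87 ± 0.119) and higher in CMT-U229 than in CMT-U335 (0.97 ± 0.0873). STAMBPL1, which trims ubiquitin at endosomes, was higher in P114 than in CMT-U335 (0.53 ± 0.0929) and CMT-U229 (0.83 ± 0.0877). UCHL3, a relative of UCHL1, was higher in CMT-U229 than in CMT-U335 (0.64 ± 0.098), and COPS6, a further signalosome subunit, lower in P114 than in CMT-U335 (-0.35 ± 0.0995). Of the 11 measured, 3, 3 and 4 were called in P114 against CMT-U335, P114 against CMT-U229 and CMT-U229 against CMT-U335. These are 27.3%, 27.3% and 36.4% of the list, beside 22.3%, 7.3% and 17.3% of all genes. Among 9 genes of the p97 complex and shuttle factors, RAD23B, which carries ubiquitinated proteins to the proteasome, was lower in P114 than in CMT-U335 (-0.58 ± 0.0961). FAF1, a partner of p97, was lower in P114 than in CMT-U229 (-0.47 ± 0.11). The shares of the p97 list called were 11.1%, 11.1% and 0% in the same order of pairs.

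The genes' positions, which the choice did not use, were compared last. In the RefSeq gene order of assembly UU_Cfam_GSD_1.0, PSMA6, PSMC6 and PSMA3, all lower in P114 than in CMT-U335, lie on chromosome 8 in that order, 71 and 34 genes apart. Of the 20 other measured genes between PSMA6 and PSMA3, 5 were lower and 0 higher in P114 than in CMT-U335, with a median of -0.228. Over all 148 measured genes of that chromosome outside the set, the 20 included, 31 were lower and 7 higher, with a median of -0.0615. The lower shares were 25% of the 20 and 20.9% of the 148, beside 14.4% of all genes. In CMT-U229 against CMT-U335, 4 of the 20 were lower and 1 higher (median -0.158), beside 18 lower and 7 higher of the 148 (median -0.0421). The lower shares there were 20% and 12.2%, beside 8.58% of all genes. In P114 against CMT-U229, 1 of the 20 was lower and 0 higher (median -0.0262), beside 4 lower and 5 higher of the 148. The lower shares there were 5% and 2.7%, beside 3.98% of all genes. The activator genes PSME1 and PSME2, 2 genes apart on the same chromosome, and the neighbours USP8 and USP50 were called in no pair. Within 30 genes on either side of PSMA3, 7 of 12 measured genes were lower and 0 higher in P114 than in CMT-U335 (median -0.464). Around USP33 on chromosome 6, 8 of 13 were lower and 1 higher (median -0.399). Around PSMB4 on chromosome 17, 2 of 21 were lower and 1 higher (median -0.0296). These windows were picked after their values had been seen, and the part of position in the calls was not tested.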

How the data were processed

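The authors deposited 1 log2 ratio per probe and array. Per the series design text, these values had been normalized and put on a log scale. How they were normalized was not given in the sources used here, and neither was the base or the numerator, which were read as 2 (from the range of the values) and Cy5. Of 22176 probes, 7694 had 1 symbol in the platform annotation, none had several and 14482 had none. Symbols were updated through RefSeq identifiers (UU_Cfam_GSD_1.0). Arrays were turned to the order of their pair by dye, and probes of a gene were averaged (39 of the 68 genes had 1 probe, 29 more, at most 7).

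Each pair was fitted alone with limma 3.58.1 in R 4.3.3, in place of the authors' SAM, with Benjamini-Hochberg adjustment over 5246 genes. The fit was tested on simulated arrays with independent normal noise and few changed genes. Log2 changes of 0.5 were recovered there for 64%, 53% and 62% of genes. False calls were 10 of 162, 11 of 150 and 12 of 167. Both are in the order P114 against CMT-U335, P114 against CMT-U229 and CMT-U229 against CMT-U335. Arrays here may share RNA and more genes were called, so these shares need not hold for the data. Genes and lists were chosen with earlier results of these data known, as were the apparent swap couples. Called genes were named with every array, up to 6 per class and pair, or the 2 largest uncalled means where none was called, and up to 3 called related genes per list and pair. Alternatives covered centring, scaling, dye, block, loop, probe, threshold, direction, symbol and left-out-array choices. The difference of effects was added after seeing the data. No sequences are printed, since none of the tables used here held any.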

Additional observations from a re-analysis of the deposited data

Results flagged for a closer look

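In 13 of 204 combinations of a gene and a pair, 1 array lay far from the other 4, by Dixon's criterion for groups of 5, where chance gives about 1 in 20. In P114 over CMT-U335 these were PSMA1 on replicate 2 (0.71, next value 0.30), PSMA5 on replicate 5 (-2.43, next -0.62), PSMC2 on replicate 1 (-3.99, next -0.44) and UBE2E2 on replicate 3 (-1.37, next -0.26). In P114 over CMT-U229 PSMA1 (0.79), PSMA2 (0.94) and USP11 (-0.54) stood apart on replicate 4, and PSMD12 (0.72) and UBE2E2 (0.98) on replicate 5. In CMT-U229 over CMT-U335 PSMB9 stood apart on replicate 1 (1.15), UBE2J2 on replicate 3 (-0.41), and PSMB8 (-0.36) and PSMD2 (-0.80) on replicate 4. Of these combinations only PSMA1 in P114 over CMT-U335 was called.

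PSMD11 differed between P114 and CMT-U229 in its effect against CMT-U335, by -0.81 ± 0.104 (-0.55 in P114 and 0.26 in CMT-U229, adjusted p = 0.000159, limma). All 5 arrays of P114 were negative and all 5 of CMT-U229 positive. The difference of -0.81 is an indirect ratio of P114 over CMT-U229, whose direct mean was -0.40 ± 0.0869. The gap between them is the loop difference of -0.406 ± 0.128 given above.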

How the results depend on the processing

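None of the 27 called values of the 68 genes changed sign under any alternative except the turned direction, which changes every sign by construction. Of the 27, 12 were called under every alternative other than the stricter thresholds: PSMA2, PSMA3, PSMA4, PSMB1, PSMB4, PSMC6, PSMD11, USP12 and USP33 in P114 against CMT-U335, and PSMA4, PSMB1 and PSMC6 in CMT-U229 against CMT-U335. Leaving out some array ended 13 calls, averaging apparent swaps 13, a dye term 3, scaling 2, the median of the probes 1, the fit over all 15 arrays 1, an adjusted p under 0.01 16 and a 2-fold minimum all 27. Centring, complete arrays, platform symbols and the loop fit ended none.

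Counts below are of the set's genes higher and lower in the first line, in the order P114 against CMT-U335, P114 against CMT-U229 and CMT-U229 against CMT-U335, and were 4 and 13, 0 and 1, and 3 and 6 (all genes 1169, 383 and 910), with 1, 8 and 0 set apart in P114, CMT-U335 and CMT-U229. Counts that moved by more than 1.5 times follow, and the cause was not tested. Scaling set 1 gene apart in CMT-U229. A dye term left 0 lower in P114 against CMT-U229 and 0 set apart in P114. The fit over all 15 arrays gave 1 higher and 3 lower in P114 against CMT-U229 (650 genes), 5 higher in CMT-U229 against CMT-U335, and 4 set apart in P114 and 1 in CMT-U229. The loop fit gave 7 higher (1757 genes), 3 and 6 (1056), and 5 and 12 (1445), with 6, 16 and 1 set apart. Averaged swaps gave 2 higher in P114 against CMT-U335, 0 lower in P114 against CMT-U229 (79 genes), 1 and 2 in CMT-U229 against CMT-U335 (410), and 0 and 3 set apart in P114 and CMT-U335. An adjusted p under 0.01 gave 1 and 6 (642 genes), 0 lower (159) and 2 lower (470), with 0 and 3 set apart in P114 and CMT-U335. A 2-fold minimum gave 0 throughout (195, 93 and 154 genes). Read as Cy3 over Cy5, the counts were 13 and 4, 1 and 0, and 6 and 3. With each probe by itself 2 were lower in P114 against CMT-U229, 5 higher in CMT-U229 against CMT-U335 and 1 set apart in CMT-U229.

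With 1 array left out, higher genes in P114 against CMT-U335 numbered 2 to 4, lower genes in P114 against CMT-U229 0 to 1 (202 to 408 genes) and lower genes in CMT-U229 against CMT-U335 2 to 7 (571 to 863 genes). Those set apart numbered 0 to 1 in P114 and 4 to 9 in CMT-U335, and 1 to 2 differed in their effect against CMT-U335. With the replicate number as a block, 26 of the 27 calls remained, PSMA1 was lost (adjusted p = 0.208) and 1 gene was set apart in CMT-U229. The numbers do not pair the arrays: deviations of same-numbered arrays correlated at -0.249 to 0.331, and 1 of 15 arrays correlated best with its own number. The number of arrays limits the precision, and signal over background was not used here.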
